A study of Mus musculus with 22 samples.

Results

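The genes described here are 8 Krüppel-like factors (Klf2, Klf4, Klf5, Klf6, Klf7, Klf9, Klf10 and Klf13), serum response factor (Srf) and Csrnp1, 10 of the 24490 gene entries in the deposited tables. They were taken by gene symbol. RNA was sequenced from cortical neurons of Creb1-/- mouse embryos at E16.5 (C57BL/6), grown in culture until day 7 (DIV7). CREB, the product of Creb1, was brought back with a herpes simplex virus vector in 1 of 4 forms, and the control virus carried GFP. S40A CREB lacks a glycosylation site, S133A lacks the classical phosphorylation site, S40A-S133A lacks both, and WT is the unchanged protein. At 8 h of virus there were 4 S40A, 2 S133A, 2 S40A-S133A, 4 WT and 4 GFP libraries. At 4 h there were 2 S40A, 2 WT and 2 GFP libraries, which gives 22 in all. Every culture, GFP included, was silenced with tetrodotoxin (1 µM), which blocks sodium channels, and D-AP5 (100 µM), which blocks NMDA receptors, and then depolarized for 2 h with 55 mM KCl. There was therefore no unstimulated library, no virus-free library and no library of neurons with their own Creb1. The labels name neither the promoter that drove the CREB forms nor separate cultures for the replicates, and the spread behind each p-value is that between these libraries, which may be technical.

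Krüppel-like factors are zinc finger proteins that bind GC-rich promoter elements. In neurons, members of the family are known as brakes or accelerators of neurite growth: Klf4 and Klf9 restrain it, while Klf6 and Klf7 promote it. Srf is a MADS-box factor that binds the CArG box of immediate early and cytoskeletal genes and is itself activated by calcium and actin signals after depolarization, alongside CREB. Csrnp1 is an inducible nuclear protein rich in cysteine and serine.

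Levels are given as FPKM (fragments divided by transcript length and by library size) after scaling each library by a median-of-ratios factor, and are called scaled FPKM. Because FPKM is divided by length, levels can be set beside each other between genes. Over the 22 libraries, mean levels were 63.7 scaled FPKM for Klf9, 44.9 for Srf, 41.2 for Klf4, 35.1 for Klf6 and 24.9 for Klf5. Klf13, Klf7, Klf10 and Csrnp1 averaged 16.4, 15.7, 15.1 and 14.0 scaled FPKM. The ranges of neighbours in this order overlapped: for example Klf9 lay between 3.94 and 131 and Srf between 27.6 and 61.4 scaled FPKM. Klf2, which is best known from endothelial cells, averaged 0.680 scaled FPKM and stayed under the minimum of 1 FPKM set for testing, so 9 of the 10 genes were tested among 12097. In the 19 libraries whose deposited confidence bounds are informative, the bounds imply 7 to 103 fragments behind a Klf2 value and 285 to 9939 behind a value of any other of these genes.

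The libraries fall into 6 runs by the numbers in their deposited file names. Runs A and B are replicates 1 and 2 at 4 h. Runs C1 and C2 are replicates 1 and 2 of S40A, WT and GFP at 8 h, and runs D1 and D2 hold replicates 3 and 4 of these plus both replicates of S133A and of S40A-S133A. The labels do not say what the numbers stand for. Creb1 checks the virus labels and not the deletion, since the gene value does not separate its exons: it lay between 566 and 2306 scaled FPKM in the CREB libraries at 8 h, against 9.56 to 14.9 in GFP at 8 h, and between 234 and 268 in the CREB libraries at 4 h, against 11.8 to 15.7 in GFP at 4 h. Within set D it was 1832 to 2306 scaled FPKM in the 4 CREB libraries of run D2, against 566 to 755 in the 4 of run D1. Among the 8 h libraries, GFP replicate 2 was unlike the others, with 6417 entries at 0, against 7274 to 7795 in the other 8 h libraries. The 3 tables of run A differ in form from the rest: 347 entries each carry a low-data flag that appears in no other library, and 1765 to 1855 values lie outside their own bounds, against at most 6 elsewhere. Neuronal markers were present throughout, with 12 of 12 tested and a summed level of 893.6 to 1233 scaled FPKM. Microglial markers were sparse, with 2 of 12 tested, and of the endothelial and mural markers 2 of 14 were tested.

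**Figure D1:**
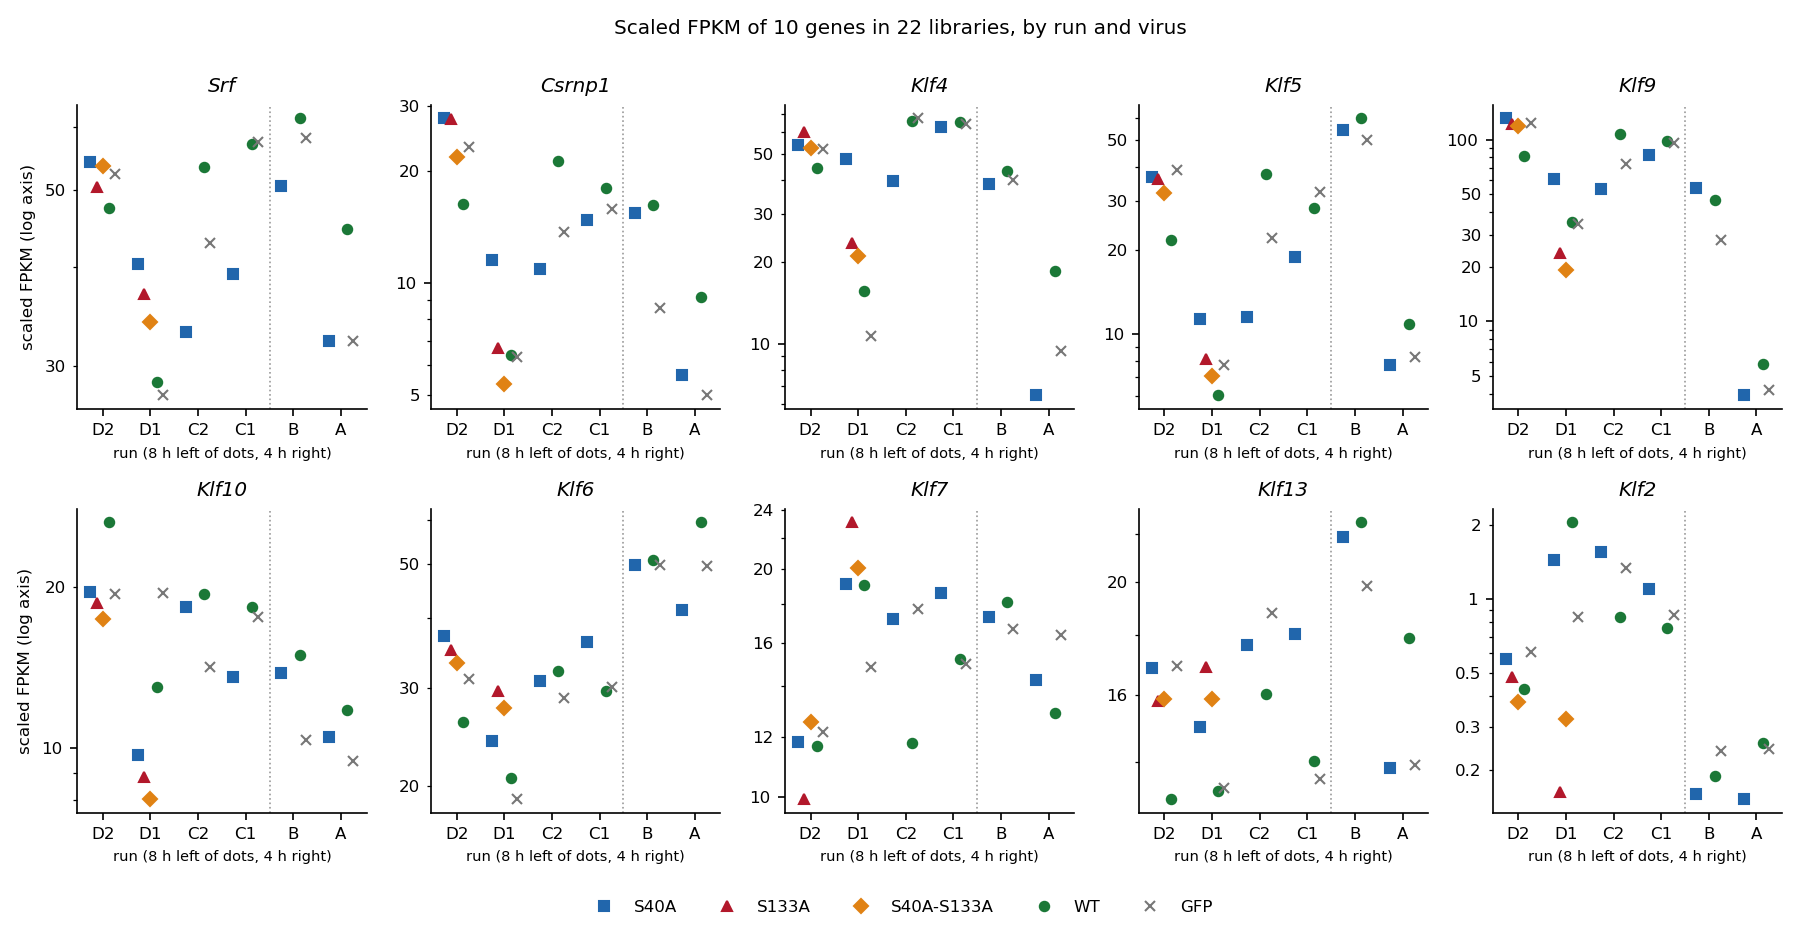
Scaled FPKM (log axis) of each of the 10 genes in each of the 22 libraries, by run; symbols mark the virus and the dotted line separates 8 h runs from 4 h runs. For Klf9, all 5 libraries of run D2 lie at 81.8 or above and all 5 of run D1 at 60.4 or below, whichever virus was used.

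Promoter letters are shown first for Srf, Klf9, Klf4 and Klf7: Srf is the CArG-binding factor itself, Klf9 and Klf4 showed the wide run differences given below, and Klf7 was the one gene called lower in a run where others were called higher. The 250 bases before the start site were taken from the RefSeq promoter table (GRCm38.p6), read 5′ to 3′ on the strand of the gene. They lie at chr17:46556163-46556412 (minus strand), chr19:23140976-23141225 (plus strand), chr4:55532476-55532725 (minus strand) and chr1:64121390-64121639 (minus strand). Capitals mark the core TGACG of the cAMP response element (CRE), or CGTCA on the other strand, and the CArG box.
Srf: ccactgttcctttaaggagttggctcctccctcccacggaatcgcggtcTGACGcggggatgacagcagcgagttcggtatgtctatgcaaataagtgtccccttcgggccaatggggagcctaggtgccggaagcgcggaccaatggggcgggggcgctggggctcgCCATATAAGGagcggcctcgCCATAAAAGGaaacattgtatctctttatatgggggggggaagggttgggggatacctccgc
Klf9: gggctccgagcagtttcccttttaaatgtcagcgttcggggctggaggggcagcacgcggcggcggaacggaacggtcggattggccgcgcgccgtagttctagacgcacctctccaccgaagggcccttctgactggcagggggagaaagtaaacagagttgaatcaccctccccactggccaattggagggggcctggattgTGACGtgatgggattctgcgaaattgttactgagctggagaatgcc
Klf4: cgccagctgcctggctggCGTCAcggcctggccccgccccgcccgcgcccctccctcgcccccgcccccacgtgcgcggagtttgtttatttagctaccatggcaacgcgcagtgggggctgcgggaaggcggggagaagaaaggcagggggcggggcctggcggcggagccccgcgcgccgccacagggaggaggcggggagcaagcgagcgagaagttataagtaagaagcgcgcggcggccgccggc
Klf7: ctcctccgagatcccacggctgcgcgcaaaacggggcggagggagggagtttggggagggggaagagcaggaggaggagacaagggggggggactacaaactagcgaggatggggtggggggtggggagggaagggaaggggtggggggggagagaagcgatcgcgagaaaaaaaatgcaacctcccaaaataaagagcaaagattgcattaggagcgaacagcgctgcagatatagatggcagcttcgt

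The table had windows (250 bases before to 50 after the start) for 8 of the 10 genes, and both strands were searched. The full CRE, TGACGTCA, was in 0 of these 8 genes, against 2.03% of 27025 genes with a window (1.79% of all 32851 windows). The core TGACG, which is also part of the full CRE, was in 6 of the 8 (Klf2, Klf4, Klf9, Klf13, Srf and Csrnp1), against 23.0% of 27025 genes with a window. Klf6 and Klf7 held none. The CArG box was found in the Srf window alone among the 8 genes, at 82 and 62 bases before the start, against 1.81% of genes; Srf is known to bind its own promoter through such boxes. In Klf9 the core lay 46 bases before the start, in Klf4 232 and in Srf 201. The 4 windows listed for Csrnp1 begin at other start sites than the deposited gene and each held at least 1 core. A match describes letters in a window and is not a binding site, and a window without one says nothing of the factor.

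Most of these genes differed between runs. At 8 h, 8 of the 9 tested genes were called in run D2 against run D1 (limma with virus as a term, Benjamini-Hochberg adjusted p under 0.05), where 30.3% of all genes tested were called. Higher in run D2 were 7, against 13.3% of all genes, and Klf7 was lower. The medians were 0.79 over the 9 genes and -0.02 over all genes tested, on the log2(scaled FPKM + 1) scale that holds for every log2 difference below. With 1 library left out, 4 to 8 genes were called, fewest without WT replicate 3 or 4 (4). Calls of Klf4, Klf6, Klf7 and Klf10 were lost without some libraries of WT, S40A, S133A or S40A-S133A, with limma adjusted p of up to 0.084, and those of Srf, Csrnp1, Klf5 and Klf9 were not. In bulk RNA, more cells of a type and more RNA per cell cannot be told apart. Within set D, the level of virus-borne Creb1 and the run moved together in the CREB libraries, and their parts cannot be told apart there, while GFP libraries carry the run without it.

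Srf had 54.1 (S40A), 50.4 (S133A), 53.6 (S40A-S133A), 47.4 (WT) and 52.4 (GFP) scaled FPKM in run D2. In run D1 it had 40.3 (S40A), 37.0 (S133A), 34.1 (S40A-S133A), 28.6 (WT) and 27.6 (GFP). Every D2 library was above every D1 library, and the fitted difference was 0.62 (SE 0.08, limma adjusted p = 0.0075). Srf lies on chromosome 17 at 46546839 to 46556162 (mm10).

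Csrnp1 (chromosome 9, 119971166 to 119984658) had 27.8 (S40A), 27.6 (S133A), 21.9 (S40A-S133A), 16.4 (WT) and 23.3 (GFP) scaled FPKM in run D2. Its run D1 values were 11.5 (S40A), 6.67 (S133A), 5.36 (S40A-S133A), 6.40 (WT) and 6.30 (GFP). The runs did not overlap, with a difference of 1.58 (SE 0.13, limma adjusted p = 0.0039). Its relatives Csrnp2 and Csrnp3 differed by 0.18 (SE 0.07) and -0.13 (SE 0.06), and neither was called (limma adjusted p = 0.12 for each).

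Klf4, one of the reprogramming factors of stem cell biology (chromosome 4, 55527137 to 55532475), had 53.8 (S40A), 60.3 (S133A), 52.8 (S40A-S133A), 44.4 (WT) and 52.3 (GFP) scaled FPKM in run D2. In run D1 it had 47.9 (S40A), 23.5 (S133A), 21.1 (S40A-S133A), 15.6 (WT) and 10.7 (GFP). S40A of run D1 was above WT of run D2, so the runs overlapped through that library; the difference was 1.28 (SE 0.28, limma adjusted p = 0.025). The GFP pair differed by 2.18 and the S40A pair by 0.17.

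Klf5, a growth-linked relative of Klf4 (chromosome 14, 99298691 to 99313409), had 36.6 (S40A), 36.0 (S133A), 32.3 (S40A-S133A), 21.8 (WT) and 38.8 (GFP) scaled FPKM in run D2. Run D1 gave 11.3 (S40A), 8.13 (S133A), 7.07 (S40A-S133A), 6.06 (WT) and 7.75 (GFP). Every virus showed a rise of between 3.23- and 5.01-fold without overlap, and the fitted difference of 1.91 (SE 0.10, limma adjusted p = 0.0021) was the largest among the 9 genes.

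Klf9, a target of thyroid and glucocorticoid hormones that rises as neurons mature (chromosome 19, 23141226 to 23166911), had 131 (S40A), 121.5 (S133A), 119 (S40A-S133A), 81.8 (WT) and 124 (GFP) scaled FPKM in run D2. In run D1 it had 60.4 (S40A), 23.7 (S133A), 19.1 (S40A-S133A), 35.1 (WT) and 34.1 (GFP). The runs did not overlap and differed by 1.80 (SE 0.25, limma adjusted p = 0.0090). The differences within a virus lay between 2.17- and 6.21-fold, with the widest in S40A-S133A.

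Klf10, known as a TGF-beta-inducible early gene (chromosome 15, 38291464 to 38300711), had 19.6 (S40A), 18.6 (S133A), 17.5 (S40A-S133A), 26.4 (WT) and 19.4 (GFP) scaled FPKM in run D2. In run D1 it had 9.72 (S40A), 8.84 (S133A), 8.05 (S40A-S133A), 13.0 (WT) and 19.4 (GFP). All 4 CREB forms were thus about equally far apart between the runs, with differences of 0.94 (S40A), 1.00 (S133A), 1.03 (S40A-S133A) and 0.97 (WT), while the GFP pair differed by -0.005. Over all 5 viruses the difference was 0.79 (SE 0.17, limma adjusted p = 0.026). Whether the run difference of the CREB forms differed from that of GFP was not tested.

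Klf6, a growth-promoting factor that is also induced by injury (chromosome 13, 5861489 to 5870393), lay between 26.0 and 37.2 scaled FPKM in run D2, with a median of 33.3, against 18.9 to 29.6 in run D1, with a median of 24.1. The difference was 0.42 (SE 0.08, limma adjusted p = 0.020), it was above 0 in 5 of 5 viruses, and the runs overlapped. Klf7 went the other way.

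Klf7, needed for the growth of several kinds of axon in mice (chromosome 1, 64035671 to 64121389), had 11.8 (S40A), 9.94 (S133A), 12.6 (S40A-S133A), 11.7 (WT) and 12.2 (GFP) scaled FPKM in run D2. Run D1 had 19.1 (S40A), 23.1 (S133A), 20.1 (S40A-S133A), 19.1 (WT) and 14.9 (GFP). All 5 viruses were lower in run D2, without overlap, by -0.67 in the fit (SE 0.12, limma adjusted p = 0.016).

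Klf13, a close relative of Klf9 (chromosome 7, 63886351 to 63938915), was the exception, at 13.0 to 16.9 scaled FPKM in run D2 and 13.2 to 16.9 in run D1. Its difference of 0.07 (SE 0.07, 95% interval -0.10 to 0.25, limma adjusted p = 0.45) was not called. Klf2 (chromosome 8, 72319062 to 72321654) lay at 0.378 to 0.606 scaled FPKM in run D2 and 0.163 to 2.05 in run D1, was higher in run D2 in 2 of 5 viruses, and was not tested. Over the 10 libraries of the pair, 5 of the 9 tested genes (Klf5, Klf7, Klf9, Srf and Csrnp1) did not overlap between the runs, against 23.0% of all genes.

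**Figure D2:**
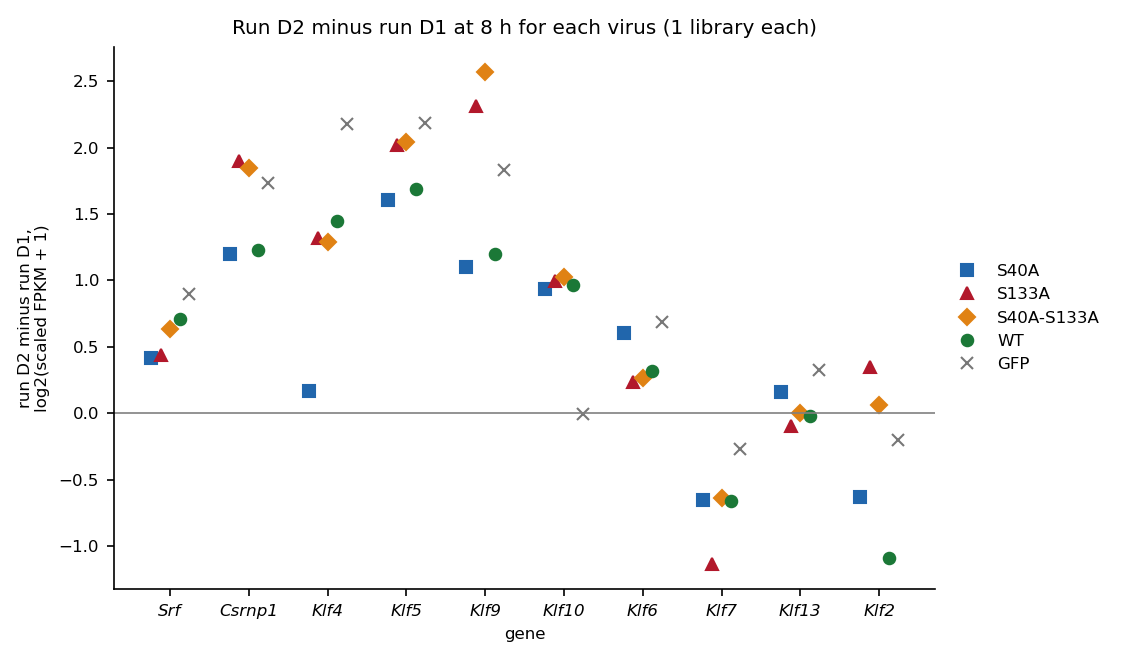
Difference between the run D2 and the run D1 library of each virus at 8 h, on the log2(scaled FPKM + 1) scale, for the 10 genes. Klf5 and Csrnp1 are above 1.2 for every virus, Klf7 is below 0 for every virus, and the GFP point of Klf10 sits at -0.005 beside 0.94 to 1.03 for the CREB forms.

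At 4 h, run B against run A gave the same direction for the genes that were called in both pairs. Of the 9 genes, 6 were called and all 6 were higher in run B, against 40.8% of all genes called and 19.9% called higher. Klf9 had 53.9 (S40A), 46.5 (WT) and 27.9 (GFP) scaled FPKM in run B, against 3.94 (S40A), 5.79 (WT) and 4.18 (GFP) in run A, and differed by 2.92 (SE 0.23, limma adjusted p = 0.0071). Klf5 had 54.4 (S40A), 59.6 (WT) and 49.9 (GFP) in run B, against 7.78 (S40A), 10.9 (WT) and 8.25 (GFP) in run A, a difference of 2.49 (SE 0.08, limma adjusted p = 0.0012). Both were several-fold higher in run B with each virus.

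Klf4 had 38.7 (S40A), 43.3 (WT) and 40.2 (GFP) scaled FPKM in run B, against 6.50 (S40A), 18.5 (WT) and 9.44 (GFP) in run A, and differed by 1.86 (SE 0.27, limma adjusted p = 0.019). Srf had 50.5 (S40A), 61.4 (WT) and 58.0 (GFP) in run B, against 32.3 (S40A), 44.6 (WT) and 32.3 (GFP) in run A, and differed by 0.64 (SE 0.09, limma adjusted p = 0.017). Neither gene overlapped between the runs. The share of all genes without overlap was not counted for this pair, and 70.9% of all genes tested differed in the same direction with every virus. Csrnp1 had 15.5 (S40A), 16.2 (WT) and 8.54 (GFP) in run B, against 5.66 (S40A), 9.15 (WT) and 5.00 (GFP) in run A; WT of run A was above GFP of run B, and the difference was 0.91 (SE 0.16, limma adjusted p = 0.026). Klf13 was higher by 0.47 (SE 0.08, limma adjusted p = 0.025). The Klf13 call was lost without any single library (limma adjusted p of 0.064 to 0.127) and with FPKM as deposited (0.21, limma adjusted p = 0.10). The Csrnp1 call was lost without either WT or either S40A library (limma adjusted p of 0.082 to 0.102), with no filter on low values (0.057) and with no virus term (0.051). The Klf4 call was lost without either GFP or either S40A library and the Srf call without either WT or either S40A library, with limma adjusted p of up to 0.087 for Klf4 and 0.107 for Srf.

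Klf10, Klf7 and Klf6 were not called between runs B and A, with differences of 0.27 (SE 0.08), 0.25 (SE 0.11) and 0.02 (SE 0.11). With 1 library left out, 2 to 5 genes were called, fewest without either S40A library (2), and Klf5 and Klf9 were called each time. The 95% interval was -0.06 to 0.56 for Klf7 and -0.31 to 0.35 for Klf6, and whether the differences of B minus A differed from those of D2 minus D1 was not tested. The different form of the run A tables moves with this comparison, and its part in it was not tested. Between runs C2 and C1, 0 of the 9 genes were called by limma (0 at an unadjusted p under 0.05), against 0.0331% of all genes, and the differences lay between -0.28 (Klf9) and 0.20 (Klf13).

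**Figure D3:**
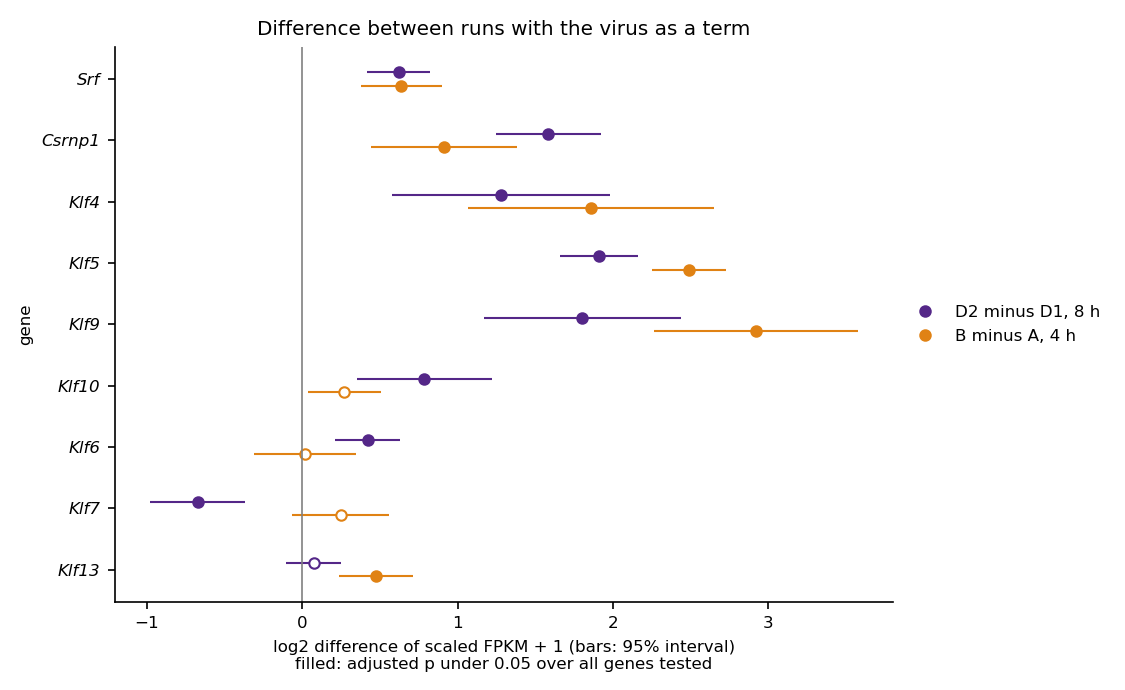
Fitted differences between runs with the virus as a term, D2 minus D1 at 8 h and B minus A at 4 h, with 95% intervals; filled points have a limma adjusted p under 0.05 over 12097 genes. Srf, Csrnp1, Klf4, Klf5 and Klf9 are filled and above 0 in both pairs, and Klf7 is filled and below 0 in D2 minus D1 alone.

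Runs held 63.9% of the variance of Srf among the 16 libraries at 8 h, 82.6% for Csrnp1, 70.7% for Klf4, 81.0% for Klf5, 79.4% for Klf9, 55.5% for Klf10, 53.2% for Klf6 and 70.4% for Klf7. Klf13 had 26.5%. The median over all genes tested was 37.8%. Viruses held between 2.07% (Srf) and 35.2% (Klf13), with a median of 19.7% over all genes. These shares are a description, since the viruses are not equally spread over the runs.

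Some genes around these factors differed between the same runs. Of all genes tested, 13.3% were called higher in run D2 and 19.9% in run B. In either direction the shares were 30.3% and 40.8%. Of 14 activity-induced Srf targets, such as the Egr family and Fosb, 11 were called higher in run D2 and 0 lower, with a median of 1.07 against -0.02 for all genes. They were Egr4 (2.99), Nr4a1 (1.35), Arc (1.34), Egr2 (1.21), Btg2 (1.17), Fosb (1.16), Junb (1.08), Egr3 (1.06), Cyr61 (0.97), Mcl1 (0.71) and Egr1 (0.68). In run B against run A, 13 of the 14 were called higher and 0 lower, with a median of 1.93. Egr4 differed there by 3.70, and Egr3 by 3.02. The summed level of the list was 1897 to 3023 scaled FPKM in run D2 and 945 to 2031 in run D1.

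Cytoskeletal targets of Srf were called in both directions, beside shares of 30.3% (D2 against D1) and 40.8% (B against A) among all genes tested. Of 14 tested, 3 were called higher in run D2 (Acta2 0.93, Cnn2 0.40, Actn1 0.24) and Zyx, a focal adhesion protein, was lower by -0.39. The median was 0.21. In run B, 1 was higher (Actn1 0.54) and 3 were lower: Tpm1 (-0.42), Acta2 (-1.17) and the cytoplasmic actin gene Actg1 (-5.92). Actg1 averaged 18.2 scaled FPKM in run B and 1165 in run A, 396.6 in run C2, and between 17.4 and 20.0 in runs C1, D1 and D2. The summed level of the list was 1805 to 3120 scaled FPKM in run C2. The 3120 was in GFP replicate 2, against at most 2060 in the CREB libraries at 8 h, so the Actg1 mean of run C2 need not hold for each of its libraries. Actin genes have near-identical copies, and the treatment of reads shared between copies is not stated, so the Actg1 value is uncertain.

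Cofactors of Srf, the myocardin-related Mkl1 and Mkl2 and the Ets-type factors, gave 0 calls of 6 tested between D2 and D1, with Mkl1 at -0.22 (SE 0.12) and Ets2 at 0.22 (SE 0.08). Elk4 and Mkl2 were at 0.18 (SE 0.10) and 0.06 (SE 0.08). In run B, Elk4 (0.67) and Elk1 (0.47) were higher than in run A and Ets2 was lower (-0.65). Csrnp2 (0.53) and Csrnp3 (0.86) were both called higher in run B.

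Among 14 other Klf and Sp factors tested, 6 were called higher and 2 lower in run D2. Higher were Sp5 (1.06), Sp9 (1.05), Sp8 (0.71), Sp6 (0.65), Sp1 (0.44) and Klf16 (0.35), and lower were Klf15 (-0.27) and Klf8 (-0.22). Run B had 6 called higher than in run A (Sp9 1.72, Klf16 0.99, Sp8 0.96, Sp5 0.91, Klf8 0.68, Sp6 0.21) and 1 lower (Sp2 -0.57). Of 12 genes linked in the literature to Klf action on growth and differentiation, 5 were higher in run D2: the injury-induced factor Atf3 (1.38), the TGF-beta inhibitor Smad7 (1.27), the cell cycle inhibitor Cdkn1a (0.92), Sox11 (0.38) and Stat3 (0.38). The adhesion molecule L1cam (-0.39), Smad3 (-0.29) and Thrb (-0.17) were lower. In run B, 8 were called higher than in run A, among them Atf3 (2.23), Cdkn1b (1.03), Smad7 (0.91), Stat3 (0.72), Sox11 (0.68), Ntrk2 (0.49), L1cam (0.42) and Thrb (0.31), and 0 were lower.

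Some markers of cell types also differed between these runs. Of all genes tested, 30.3% were called in D2 against D1 and 40.8% in B against A. The summed neuronal markers were 911 to 1042 scaled FPKM in run D2 and 1049 to 1233 in run D1, without overlap, with Tubb3 (-0.52), Neurod6 (-0.32) and Map2 (-0.27) called lower in D2 and Gad2 (0.48) higher. Fibroblast and meningeal markers summed to 9.98 to 13.9 in run D2 and 4.44 to 8.17 in run D1, with 2 of 4 tested called higher, Col1a1 (1.31) and Twist1 (1.08). Endothelial and mural markers summed to 5.35 to 7.44 in D2 and 3.92 to 4.72 in D1, with 1 of 2 called higher (Esam 0.44), while Cdh5, which defines endothelium, averaged 0.0186 in D2 and 0.0108 in D1. Microglial markers summed to 5.65 to 9.55 in D2 and 3.58 to 7.46 in D1, with 1 of 2 called higher (Tyrobp 0.53). Astrocyte and oligodendrocyte lists gave 0 calls of 10 and of 7. Of all marker genes, 0 were at 0 in every library. In run B the neuronal sum was 1049 to 1181, against 894 to 1074 in run A. Fibroblast markers summed to 8.24 to 10.7 in run B and 4.34 to 9.20 in run A, with Twist1 higher (0.57), oligodendrocyte markers to 65.0 to 115 in B and 58.7 to 82.2 in A, with Olig2 (0.61) higher and Mog (-0.34) lower, and astrocyte markers to 197 to 307 in B and 250 to 745 in A, with Slc1a2 lower (-0.40). The part of these markers in the run differences was not tested.

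The study compared forms of CREB in neurons without their own, and none of these genes was called for any form. In any CREB form against GFP at 8 h, 0 of the 9 genes were called by limma, and 0 had an unadjusted p under 0.05, against 0.0248% of all genes called. The count was also 0 without the unlike GFP replicate 2. By form, 0 of 9 were called against GFP for S40A (0.00827% of all genes), S133A (0.0248%), S40A-S133A (0.0165%) and WT (0.00827%). No gene separated CREB from GFP libraries at 8 h, where 0.116% of all genes did.

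Srf averaged 41.7 ± 8.8 (S40A, n = 4), 43.7 ± 9.5 (S133A, n = 2), 43.9 ± 13.7 (S40A-S133A, n = 2), 46.6 ± 12.6 (WT, n = 4) and 45.1 ± 13.1 (GFP, n = 4) scaled FPKM at 8 h (mean ± SD). Its CREB minus GFP difference was 0.03, with a 95% interval of -0.47 to 0.53. The groups overlapped fully. Csrnp1 gave 0.05 (-1.0 to 1.11), Klf4 0.24 (-0.75 to 1.24), Klf5 -0.18 (-1.48 to 1.12) and Klf9 -0.18 (-1.41 to 1.05), each with an interval more than 1 log2 unit wide. The 8 h fit has no run term, so these intervals also include the spread between runs within a set.

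Intervals of the remaining tested genes were narrower than those of Csrnp1, Klf4, Klf5 and Klf9. Klf6 differed by 0.23 (-0.07 to 0.54, limma adjusted p = 0.83), Klf7 by 0.08 (-0.40 to 0.56), Klf10 by -0.27 (-0.85 to 0.30) and Klf13 by 0.06 (-0.13 to 0.24). For Klf10, the 4 CREB libraries of run D1 had 8.05 to 13.0 scaled FPKM, all below the GFP library of that run at 19.4, whereas in run D2 they had 17.5 to 26.4 beside 19.4 in GFP. WT minus GFP for Klf10 was 0.43 (D2), -0.55 (D1), 0.42 (C2) and 0.06 (C1).

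Klf2 had 0.569 to 1.55 (S40A), 0.163 and 0.479 (S133A), 0.323 and 0.378 (S40A-S133A), 0.430 to 2.05 (WT) and 0.606 to 1.34 (GFP) scaled FPKM at 8 h. The 4 libraries without S133 were below all GFP libraries, but so were S40A and WT of run D2, and the gene was under the minimum for testing. Within run D2 all 5 libraries lay within 0.378 to 0.606.

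**Figure D4:**
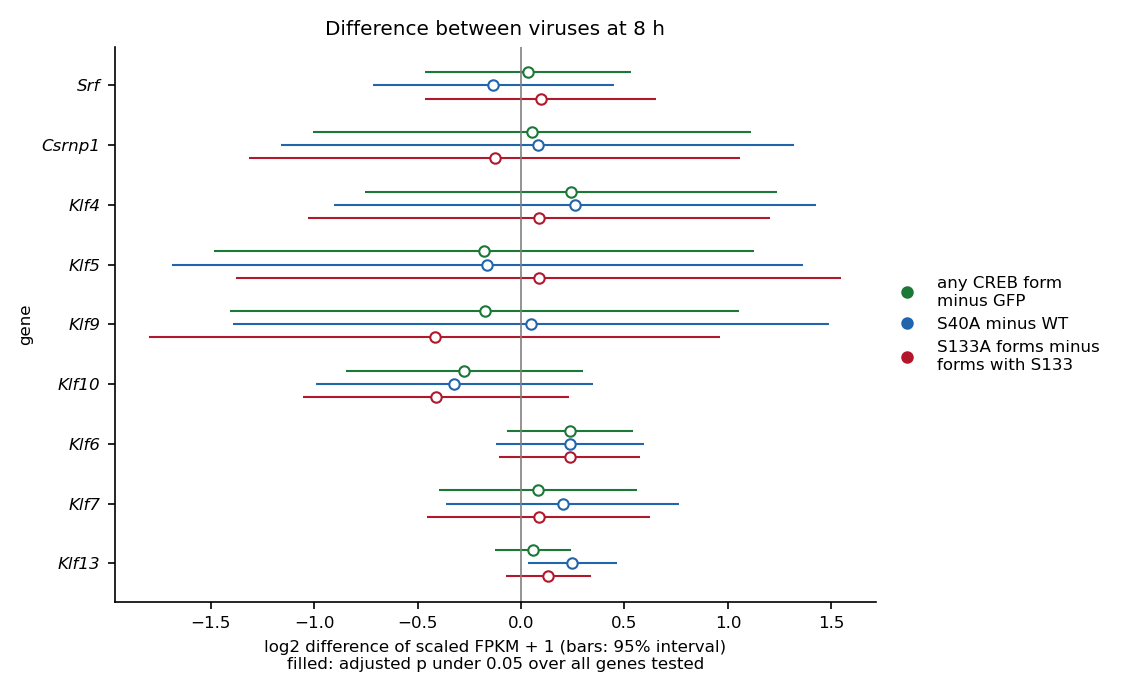
Fitted differences at 8 h with 95% intervals for any CREB form minus GFP, S40A minus WT, and the forms without S133 (S133A, S40A-S133A) minus those with it (S40A, WT); open points have a limma adjusted p of 0.05 or more over 12097 genes. All 27 points are open, and the intervals are narrowest for Klf13 and widest for Klf5 and Klf9.

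Mutation of the sites was compared with WT. In S40A against WT at 8 h, 0 of 9 genes were called, as were 0 of all 12097 genes (0.0%) by limma, while 498 of all genes and 1 of the 9 had an unadjusted p under 0.05. That gene was Klf13, with 16.9, 15.01, 17.7 and 18.0 scaled FPKM in S40A (runs D2, D1, C2, C1), against 13.0, 13.2, 16.0 and 14.0 in WT. The S40A library was higher in each of the 4 runs at 8 h, but lower in both runs at 4 h, by -0.04 (B) and -0.35 (A). The fitted difference at 8 h was 0.25 (SE 0.10, limma adjusted p = 1). Klf13 also differed between S133A and WT by 0.28 (SE 0.13, limma adjusted p = 1).

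In S133A against WT, 0 of 9 genes were called (0.0165% of all genes), in S40A-S133A against WT 0 (0.00827%), and for loss of S133 over both backgrounds 0 (0.0248%). Klf6 had 35.1 and 29.6 scaled FPKM in S133A and 33.3 and 27.6 in S40A-S133A (runs D2 and D1), against 26.0 and 20.6 in WT and 31.1 and 18.9 in GFP of those runs. S40A, which keeps S133, had 37.2 and 24.1 and was likewise above WT and GFP of its own run. The fitted difference from WT was 0.40 for S133A (SE 0.21, limma adjusted p = 1) and 0.31 for S40A-S133A (SE 0.21, limma adjusted p = 1). Klf10 was lower than WT in both runs for S133A (-0.48 and -0.51) and for S40A-S133A (-0.57 and -0.63), with fitted differences of -0.52 (SE 0.40) and -0.62 (SE 0.40) that were not called.

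Within runs, the S40A minus WT difference had opposite signs in the sets of 8 h libraries for 5 genes. Klf5 gave 0.73 (D2) and 0.81 (D1), but -1.62 (C2) and -0.56 (C1). Csrnp1 gave 0.73 (D2) and 0.76 (D1), but -0.90 (C2) and -0.27 (C1). Klf9 gave 0.67 (D2) and 0.77 (D1), but -0.99 (C2) and -0.25 (C1). Srf and Klf4 had the same arrangement, Srf with 0.19 (D2), 0.48 (D1), -0.67 (C2) and -0.53 (C1), and Klf4 with 0.27 (D2), 1.56 (D1), -0.72 (C2) and -0.06 (C1). The pooled S40A difference of these genes thus averages within-run values of opposite sign. Each of these values rests on 1 library of each virus, and the genes share the same libraries. The difference between sets was not tested, and the share of all genes with such opposite signs was not counted. Klf10 alone among the 10 genes kept 1 sign in all 6 runs, with S40A below WT by -0.42 (D2), -0.39 (D1), -0.08 (C2), -0.41 (C1), -0.11 (B) and -0.15 (A). Of all genes tested, 4.43% kept 1 sign over the 6 runs. The fitted Klf10 difference was -0.32 at 8 h (SE 0.31, limma adjusted p = 1) and -0.13 at 4 h (SE 0.21, limma adjusted p = 1).

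**Figure D5:**
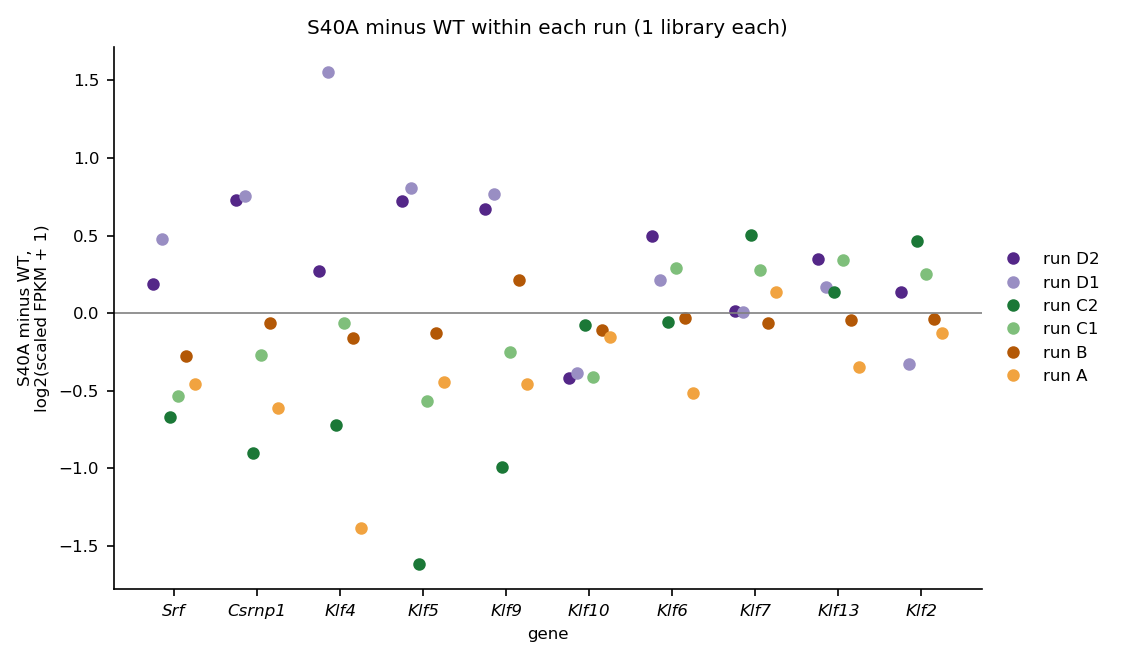
S40A minus WT within each of the 6 runs on the log2(scaled FPKM + 1) scale, with 1 library of each virus a run. Srf, Csrnp1, Klf4, Klf5 and Klf9 are above 0 in runs D2 and D1 and below 0 in runs C2 and C1, and Klf10 is below 0 in all 6 runs, between -0.42 and -0.08.

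At 4 h, 0 of 9 genes were called in S40A against GFP, WT against GFP or S40A against WT, where 0.0909% of all genes were called in each. With the run as a replicate block, 0 of 9 were again called, and the all-gene count in S40A against WT was 7 in place of 11. The largest WT minus GFP difference was that of Csrnp1, at 0.81 (SE 0.58, limma adjusted p = 1), with 0.85 in run B and 0.76 in run A. The SEs given for virus differences at 4 h are from the fit with virus alone. They therefore include the spread between runs B and A. Klf10 gave 0.39 (SE 0.21), with 0.49 (B) and 0.29 (A), and Klf4 0.50 (SE 1.14), with 0.10 (B) and 0.90 (A). WT was the highest of the 3 viruses in both runs for Srf, Csrnp1, Klf4, Klf5, Klf6, Klf10 and Klf13. The shares of all genes with this order, or with S40A below WT, were not counted, and both rest on the same WT libraries. S40A minus WT was below 0 for 8 of the 9 genes, from -0.77 (Klf4) to -0.12 (Klf9), and 0.04 for Klf7.

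The activity-induced list at 4 h had 14 of 14 genes below 0 in S40A minus WT (median -0.49), 5 of 14 above 0 in S40A minus GFP (median -0.11) and 14 of 14 above 0 in WT minus GFP (median 0.37), with 0 called in each. Medians over all genes tested were -0.006, 0.004 and 0.009 in these comparisons, and the shares of all genes above or below 0 were not counted. The comparisons share libraries, the same 2 of WT in the first and the last, so the counts of genes are not separate observations. Oligodendrocyte markers were above 0 in S40A minus WT for 6 of 7 (median 0.52) and astrocyte markers for 7 of 10 (median 0.23), and their part was not tested. At 8 h 11 of 14 genes of the activity-induced list were above 0 in S40A minus WT (median 0.15, against 0.005 over all genes tested), again with 0 called. Tested directly, the difference between the 8 h and the 4 h effect gave 0 of 9 calls for S40A against GFP (0.00827% of all genes), WT against GFP (0.0165%) and S40A against WT (0.0248%). All other lists of related genes gave 0 calls in the virus comparisons.

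Time could be compared only across different runs, so time and run cannot be told apart. In GFP at 8 h against GFP at 4 h, 1 of the 9 genes was called, against 11.5% of all genes called and 4.6% called lower. It was Klf6, with 18.9, 28.8, 30.1 and 31.1 scaled FPKM in GFP at 8 h, against 49.6 and 49.8 at 4 h. The difference was -0.87 (SE 0.19, limma adjusted p = 0.011). Over all viruses, Klf6 lay between 18.9 and 37.2 in the 16 libraries at 8 h and between 41.3 and 59.4 in the 6 at 4 h; it alone among the 9 did not overlap, against 9.65% of all genes. The call was lost without run A, where the difference was the same (-0.87, limma adjusted p = 0.061), and without either GFP library at 4 h.

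Klf9 in GFP had 34.1, 73.3, 95.5 and 124 scaled FPKM at 8 h, against 4.18 and 27.9 at 4 h. All 8 h values were higher, with a difference of 2.61 (SE 1.07, limma adjusted p = 0.13) that was not called. Klf10 had 14.2, 17.6, 19.4 and 19.4 at 8 h, against 9.45 and 10.4 at 4 h, a difference of 0.76 (SE 0.34, limma adjusted p = 0.17). The share of all genes without overlap between the GFP libraries of 8 h and 4 h was not counted. Klf4 gave 0.98 (SE 0.78), Csrnp1 0.94 (SE 0.67), Klf7 -0.15 (SE 0.29), Klf13 -0.10 (SE 0.17), Klf5 0.07 (SE 1.01) and Srf 0.00 (SE 0.34).

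Klf2 was at 0.163 to 2.05 scaled FPKM over the 16 libraries at 8 h and at 0.153 to 0.259 over the 6 at 4 h. Among related genes, Sp6 (1.10), Arc (1.85) and Cnn2 (0.69) were called higher in GFP at 8 h, and Klf12 (-0.66), Sp3 (-0.57) and Ets1 (-1.39) lower. Some markers of oligodendrocyte precursors and of neurons also differed with the time, where 11.5% of all genes tested were called. Olig2 (-1.59), Pdgfra (-1.09), Olig1 (-0.85), Gad1 (-1.21) and Slc17a6 (-0.75) were called lower and Rbfox3 (0.82) higher. The oligodendrocyte list summed to 31.7 to 60.7 scaled FPKM in GFP at 8 h, against 58.7 to 115 over the 6 libraries at 4 h. The part of these markers in the Klf6 difference was not tested.

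Among the factors themselves, Pearson correlations of the log2 levels over the 22 libraries were 0.92 for Klf5 and Srf, 0.87 for Klf4 and Klf9, 0.84 for Klf4 and Csrnp1, 0.84 for Klf9 and Csrnp1 and -0.69 for Klf7 and Klf10. With each run centred on its own mean, these were 0.82, 0.50, 0.65, 0.89 and -0.61. All points share libraries and runs, so the values describe these data and carry no test.

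The genes with the most similar pattern were sought among those with a mean of at least 5 FPKM. Klf4 was most like Egr4 (r = 0.93), Egr2 (0.93) and Spty2d1 (0.92), and Klf5 was most like Unc45a (0.98), Midn (0.98) and Trib1 (0.97). Srf was most like Sik1 (0.96), a kinase gene known as a CREB target, Midn (0.95) and the orphan nuclear receptor Nr4a1 (0.94). Klf9 was most like Gadd45b (0.97), a stress- and activity-induced gene, Hivep3 (0.96) and Gfod1 (0.96), and Csrnp1 like Kcnf1 (0.94), Vegfa (0.93) and Nfkbiz (0.92). Egr4, Egr2 and Nr4a1 are in the activity-induced list above.

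Klf6 was most like Wdr90 (r = 0.93), Lbr (0.92) and Cacng7 (0.91). Klf7 was most like Dock3 (0.92), Nicn1 (0.91) and Madd (0.90). Klf10 was most like Ddx47 (0.89), Ybx3 (0.89) and Dnajc25 (0.88), and Klf13 like Mmab (0.86), Atp8b2 (0.83) and Dennd4a (0.83). With run means removed, r over all 27 pairs lay between 0.57 (Klf13 and Dennd4a) and 0.94 (Klf5 and Midn); for the most similar gene of each it was 0.77 (Klf4), 0.93 (Klf5), 0.62 (Klf6), 0.81 (Klf7), 0.84 (Klf9), 0.82 (Klf10), 0.77 (Klf13), 0.92 (Srf) and 0.78 (Csrnp1).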

How the data were processed

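The authors deposited 1 Cufflinks table per library, with FPKM values and lower and upper bounds for 24490 gene entries. CASAVA 1.7, Bowtie 0.12.2 and Cufflinks are named in the submitters' processing notes, with builds mm8 and mm10; gene positions lie on mm10. How multiply mapping reads and strand were handled is not stated, and the tables hold no read totals, so depth is unknown.

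Deposited FPKM values were scaled by median-of-ratios factors over 14305 genes, and log2 was taken after adding 1 FPKM, which understates changes of low genes. Of 12118 entries with a mean of at least 1 FPKM, 21 with a failed estimate in any library were removed, leaving 12097. Moderated two-sided tests came from limma 3.58.1 (R 4.3.3) with a trend of variance on mean; p-values were adjusted by Benjamini-Hochberg over the 12097 genes and called under 0.05. One fit took the 16 libraries at 8 h with virus and set (C or D) as terms (10 residual degrees of freedom), another the 6 at 4 h with virus alone (3). Run fits held virus and run (4 degrees of freedom for D2 and D1, 2 for the other pairs), and time was tested in 1 fit of all 22 libraries (13). Fragments behind a value were estimated from its bounds as the square of the FPKM over its standard error, taking the bounds as 2 standard errors to each side; these came out whole, within 0.05, for 72.8% to 88.1% of low values in 19 libraries and for 9.49% to 12.9% in run A.

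Same-numbered libraries deviated together from their group means in every pair of viruses at 4 h (correlations of 0.545 to 0.563), so from these values, not from the labels, the numbers were taken to pair the 4 h libraries, with the run as a replicate block in an alternative fit. The run A tables also differ in form from those of run B, and the part of this in the correlations was not tested. At 8 h these correlations were -0.041 to 0.053 in set C and 0.067 to 0.397 in set D, so all were above 0 in set D. The numbers were not taken to pair the 8 h libraries. Because the main 8 h fit has no run term, its intervals for virus differences also include the spread between runs within a set.

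Members and gene lists were chosen with earlier results of these data known. All members are named; of other lists, genes that were called are named, and otherwise up to 4 with the largest D2 minus D1 difference. Alternatives covered pseudocount, scaling, filter, trend, set or run terms and single libraries; leaving out run A, or the GFP libraries of runs D2 and D1, was added after seeing the data. Tables were made in Python 3.11.15 with pandas 2.3.3 and numpy 2.4.6, and figures with matplotlib 3.10.9.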

Additional observations from a re-analysis of the deposited data

How the results depend on the processing

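With the run as a replicate block, 0 members were called in any virus comparison, as in the fits without it. At 4 h, where the replicate numbers were taken to pair the libraries, the all-gene count with the block was 7 for S40A against WT, 8 for S40A against GFP and 10 for WT against GFP, against 11 in each without it. The adjusted p of Klf6 in any CREB form against GFP at 8 h was 0.386 with the block and 0.83 without it. In run D2 against D1, 8 members were called, and 4 to 8 when 1 library was left out; the lowest counts came without WT replicate 3 or 4 (4) and without S40A replicate 3 or 4 or S40A-S133A replicate 1 or 2 (5). In run B against A, 6 were called, and 2 to 5 when 1 library was left out, with 3 without either WT and 2 without either S40A library. Leaving out 1 library of a pair leaves its partner fitted exactly. For GFP at 8 h against 4 h, the single call (Klf6) became 0 without run A and 0 to 1 when 1 library was left out. Calls of Klf5 and Klf9 in both run pairs, and of Srf and Csrnp1 in D2 against D1, held in each setting run; the adjusted p of the other called members reached 0.0583 to 0.127 at most. All-gene counts were 3663 (3363 to 5506 under other settings, 1581 to 3846 without 1 library) for D2 against D1, 4939 (4159 to 6580, 482 to 5339) for B against A and 1396 (894 to 1451, 287 to 1427) for GFP at 8 h against 4 h. They were 0 to 3 (0 to 6, 0 to 11) in the virus comparisons at 8 h, 11 (4 to 14, 20 to 34) in each at 4 h, 1 to 3 (1 to 5, 1 to 14) for time differences and 4 (0 to 6, 0) for C2 against C1.

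Single values turned sign as follows. FPKM as deposited, which shifts the median of all genes by -0.25 (B minus A) and -0.13 (D2 minus D1), gave -0.010 for Srf in any CREB form against GFP, -0.26 for Klf6 and -0.017 for Klf7 in B against A, and -0.048 for Klf13 in D2 against D1. Without the set term Srf gave -0.016. Without run A, GFP at 8 h against 4 h gave -0.010 (Klf4), -1.16 (Klf5) and -0.41 (Srf). Leaving out 1 library gave ranges of -0.20 to 0.19 (Srf), -0.33 to 0.43 (Csrnp1), -0.35 to 0.60 (Klf4), -0.67 to 0.29 (Klf5), -0.060 to 0.22 (Klf7), -0.59 to 0.21 (Klf9) and -0.022 to 0.14 (Klf13) for any CREB form against GFP, -0.49 to 1.49 for Klf4 in WT against GFP at 4 h and -0.11 to 0.14 for Klf6 in B against A. For GFP at 8 h against 4 h they were -0.010 to 1.97 (Klf4), -1.16 to 1.30 (Klf5), -0.41 to 0.42 (Srf) and -0.34 to 0.14 (Klf13). The cause was not tested. Leaving out a library at 4 h leaves a virus with 1 sample, which is assumed to vary like the others. Klf2 was too low for a test.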
